A study of Ovis aries with 115 samples.

Results

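CPT1A (ENSOARG00000016505) encodes the liver form of carnitine palmitoyltransferase 1, and its transcript was followed here in the cervix of ewes of 4 breeds. It is 1 of the 27054 gene identifiers counted in each library and 1 of the 14811 that passed the low count filter of at least 1 CPM (counts scaled to a common library size) in at least 10 of 39 ewes in the synchronised follicular phase. The gene was chosen by its counts in Fur and Suffolk ewes in that phase, between which it differed strongly, so every comparison that holds either of those groups is given as a description, without a test. All other comparisons use different ewes and were tested.

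RNA-sequencing was performed on post-mortem tissue from the middle of the cervix, with 1 library per ewe, and all but 1 of the 115 libraries fell into 12 groups. They came from the Irish breeds Suffolk, of low fertility, and Belclare, of medium fertility, and from the Norwegian breeds Fur and Norwegian White Sheep (NWS), both of high fertility after cervical insemination with frozen-thawed semen. Each breed was sampled at 3 states, namely a synchronised follicular phase (11 Suffolk, 10 Belclare, 8 Fur and 10 NWS ewes), a natural follicular phase (8, 10, 10 and 10 ewes) and a synchronised luteal phase (10, 10, 9 and 8 ewes). Synchronised follicular ewes had carried an intravaginal progestagen sponge and had received equine chorionic gonadotrophin at its removal, and the ewes were multiparous. Irish and Norwegian ewes were kept in their own countries. A difference between an Irish and a Norwegian breed thus cannot be told apart from a country difference. The p-values judge differences between groups against the spread between ewes.

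CPT1A sits in the outer mitochondrial membrane and joins long-chain fatty acids to carnitine, the step that commits them to entry into mitochondria for beta-oxidation. It is inhibited by malonyl-CoA, the first intermediate of fatty acid synthesis, and its gene is a classical target of the fasting-responsive nuclear receptor PPAR-alpha. The family has 2 further members, of which CPT1B is the muscle form and CPT1C is a form mainly known from neurons that resides in the endoplasmic reticulum.

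Total counts ranged from 12238996 to 31261671 per library with a median of 17835128, and no pair of libraries within a group agreed within sampling noise. CPT1A was well counted throughout, with 316 to 4302 reads per ewe. Its level was set as CPM on normalised library sizes and ran from 19.1 to 227.9 CPM over all grouped ewes, with a median of 66.7 CPM. Within groups, the log2 level of CPT1A had a correlation of 0.12 with log2 total count over the ewes. The epithelial markers CDH1 and MUC1, the stromal markers MMP2 and FBLN1 and the endothelial marker VWF were all detected in every group. In such bulk tissue, fewer cells of a type and less RNA per cell cannot be told apart. In 2 of the 10 NWS natural follicular ewes, replicates 4 and 10, the mitochondrial transcript COX-1 was at 38.3 and 33.3 CPM, in the range of the 27 Fur ewes (25.7 to 49.1 CPM), whereas the other 26 NWS ewes held at least 817.9 CPM. The tests of CPT1A and the calls for other genes in NWS natural follicular ewes are given with and without these 2 ewes.

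The highest expression of CPT1A was seen in Irish ewes in the synchronised follicular phase, and the lowest in Norwegian ewes at the same phase. In Belclare the level at this phase ran from 71.0 to 227.9 CPM with a median of 140.3 (mean 147.4 ± 49.3, SD, n = 10). Suffolk ewes lay between 88.9 and 218.2 CPM with a median of 137.6 (138.3 ± 36.3, n = 11). Fur ewes held between 33.3 and 55.7 CPM with a median of 38.3 (41.3 ± 7.9, n = 8). NWS ewes ran from 19.1 to 114.2 CPM with a median of 42.3 (48.8 ± 25.4, n = 10). The breeds thus formed an Irish pair and a Norwegian pair, with a single NWS ewe, replicate 2, inside the Irish range. Every one of the 8 Fur ewes was below all 11 Suffolk and all 10 Belclare ewes, and in 0.938% and 0.729% of all genes tested, respectively, Fur was lower with no overlap. Over the 39 ewes, 17 of the 18 Norwegian values lay below every Irish value, and the Irish mean was 3.13 times the Norwegian mean. Described only, the log2 fold change was -1.74 for Fur against Suffolk, -1.82 for Fur against Belclare and -1.51 for NWS against Suffolk. Within a country it was 0.09 for Belclare against Suffolk and 0.23 for NWS against Fur.

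**Figure D1:**
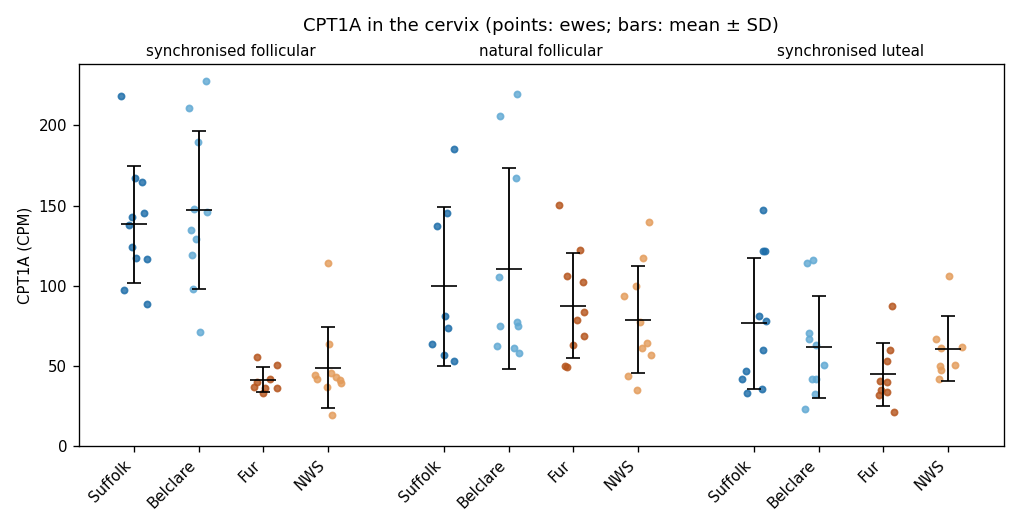
CPT1A level in CPM (vertical axis) in each ewe, by breed and state of the cycle, with the mean and SD of each group as black bars. Irish ewes sit high and Norwegian ewes low at the synchronised follicular phase, where Suffolk averages 138.3 and Fur 41.3 CPM, while the breeds overlap at the natural follicular and the luteal phase.

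In natural cycles the breeds overlapped at the follicular phase. Belclare ewes ran from 58.0 to 219.8 CPM with a median of 76.0 (110.7 ± 62.8, n = 10), and Suffolk ewes from 53.1 to 185.5 with a median of 77.5 (99.6 ± 49.6, n = 8). Fur ewes ran from 49.5 to 150.6 CPM with a median of 81.0 (87.5 ± 32.8, n = 10), and NWS ewes from 35.0 to 139.6 with a median of 70.9 (78.8 ± 33.4, n = 10). The 4 medians were close together, and 3 Belclare and 3 Suffolk ewes lay well above the rest of their groups. The Irish mean was 1.27 times the Norwegian mean at this phase.

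In the synchronised luteal phase Irish ewes had lower levels than Irish ewes at the synchronised follicular phase, and the breeds again overlapped. Suffolk ewes ran from 33.0 to 147.4 CPM with a median of 68.8 (76.7 ± 40.9, n = 10), and Belclare ewes from 23.0 to 115.8 with a median of 56.6 (61.9 ± 31.8, n = 10). NWS ewes ran from 41.8 to 106.3 CPM with a median of 56.0 (60.8 ± 20.2, n = 8), and Fur ewes from 21.0 to 87.2 with a median of 40.2 (44.7 ± 19.7, n = 9). Fur thus held the lowest luteal mean, and the Irish mean was 1.33 times the Norwegian mean. Ordered by mean CPM, the 12 groups ran from Fur at the synchronised follicular phase through the Norwegian and Irish luteal groups and the 4 natural follicular groups to Suffolk and Belclare at the synchronised follicular phase, with NWS at the synchronised follicular phase in the third place from the bottom. None of the 11 steps between neighbours in this order exceeded the larger of the SDs of the groups on either side.

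Among the tested comparisons, the question of whether breed differences in CPT1A extend beyond the ewes by which it was picked is addressed most directly by NWS against Belclare at the synchronised follicular phase. CPT1A was 3.02-fold lower in NWS (95% interval 2.10 to 4.36; log2 fold change -1.60, standard error 0.25, adjusted p = 0.00012 by edgeR's quasi-likelihood test with Benjamini-Hochberg adjustment over all genes tested). Of the 10 NWS ewes, 9 lay below all 10 Belclare ewes. In this comparison 8.52% of all genes tested were called lower in NWS, where called means an adjusted p below 0.05 and a fold change above 1.5. Of the 1338 tested genes with a name, CPT1A among them, 39.9% were called lower. Most of these names belong to genes with higher expression in Suffolk than Fur at this phase. CPT1A ranked 404 of 14811 by p. Leaving out each ewe in turn kept the call in all 20 fits, with log2 fold changes from -1.82 to -1.5, the first of these without NWS replicate 2.

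Markers of other cell types also lay apart between these groups. The summed level of 3 of the 5 smooth muscle markers (ACTG2, DES and ACTC1; the remaining ones had no identifier here) ran from 2689 to 9070 CPM in NWS with a median of 6038, and from 76.2 to 13841 CPM in Belclare with a median of 202.6. Belclare replicate 2 alone held the 13841 CPM, and every other Belclare ewe held at most 754.3 CPM. Of the 3 markers 1 was called higher in NWS. All 14 epithelial markers were measured, and their sum had a median of 1855 CPM in NWS and 3799 CPM in Belclare. All 14 of them were called lower in NWS. The sum of 5 endothelial markers had a median of 591.0 CPM in NWS and 1117 CPM in Belclare, with 3 of the 5 called lower, and that of 7 mucus and reproductive tract markers had medians of 966.5 and 1848 CPM, with 3 of the 7 called lower. The stromal sum had medians of 1813 and 2224 CPM and the leukocyte sum 72.9 and 92.5 CPM, and none of these 5 and 7 markers was called. A marker was measured only if it had a name, and most names belong to genes higher in Suffolk than Fur at this phase. Beside these counts, 8.52% of all genes and 39.9% of named genes were called lower in NWS. Of the named genes 0.897% were called higher. The part of any of these markers in the CPT1A difference was not tested.

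None of the 6 breed comparisons at the natural follicular phase passed the test for CPT1A. The largest was NWS against Belclare, with a log2 fold change of -0.50 (95% interval -1.09 to 0.10, adjusted p = 0.224). For Fur against Belclare it was -0.34 (-0.93 to 0.24, adjusted p = 0.339), and for NWS against Suffolk -0.35 (-0.95 to 0.24, adjusted p = 0.534). Fur against Suffolk, the breed pair by which the gene was picked, gave -0.20 in these other ewes (-0.77 to 0.37, adjusted p = 0.621). The lower ends of these intervals lay beyond the 1.5-fold change required for a call. They ran from 1.71-fold lower for Fur against Suffolk to 2.13-fold lower for NWS against Belclare, so differences of the called size were not excluded. None reached the described difference of -1.74 at the synchronised follicular phase. That value comes from the ewes by which the gene was picked, so no conclusion on relative size is drawn from it. Within a country, Belclare against Suffolk gave 0.15 (-0.54 to 0.84, adjusted p = 0.903) and NWS against Fur -0.16 (-0.67 to 0.34, adjusted p = 0.791). Leaving out NWS replicates 4 and 10 put NWS against Belclare to -0.50 (adjusted p = 0.270), NWS against Suffolk to -0.36 (0.591) and NWS against Fur to -0.17 (0.780), all by the same edgeR test.

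In the luteal phase, Fur against Suffolk came nearest to a call, with a CPT1A log2 fold change of -0.79 (95% interval -1.42 to -0.16, unadjusted p = 0.0163, adjusted p = 0.0527). In 7.4% of all genes and 28.8% of named genes a lower level in Fur was called at this phase. The call was made without Fur replicate 8, whose 87.2 CPM was the highest of its group (log2 fold change -0.96, adjusted p = 0.0211), by DESeq2 and in a fit of all 12 groups. Of the 9 Fur ewes 2 lay below every Suffolk ewe, and 3 of the 10 Suffolk ewes lay above every Fur ewe. Fur against Belclare gave -0.48 (-1.09 to 0.13, adjusted p = 0.201), NWS against Suffolk -0.33 (-0.93 to 0.27, adjusted p = 0.515) and Belclare against Suffolk -0.31 (-0.97 to 0.35, adjusted p = 0.567). NWS and Belclare, which differed 3.02-fold at the synchronised follicular phase, had a luteal log2 fold change of -0.03 (-0.61 to 0.55, adjusted p = 0.948). NWS against Fur gave 0.45 (-0.04 to 0.95, adjusted p = 0.496).

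**Figure D2:**
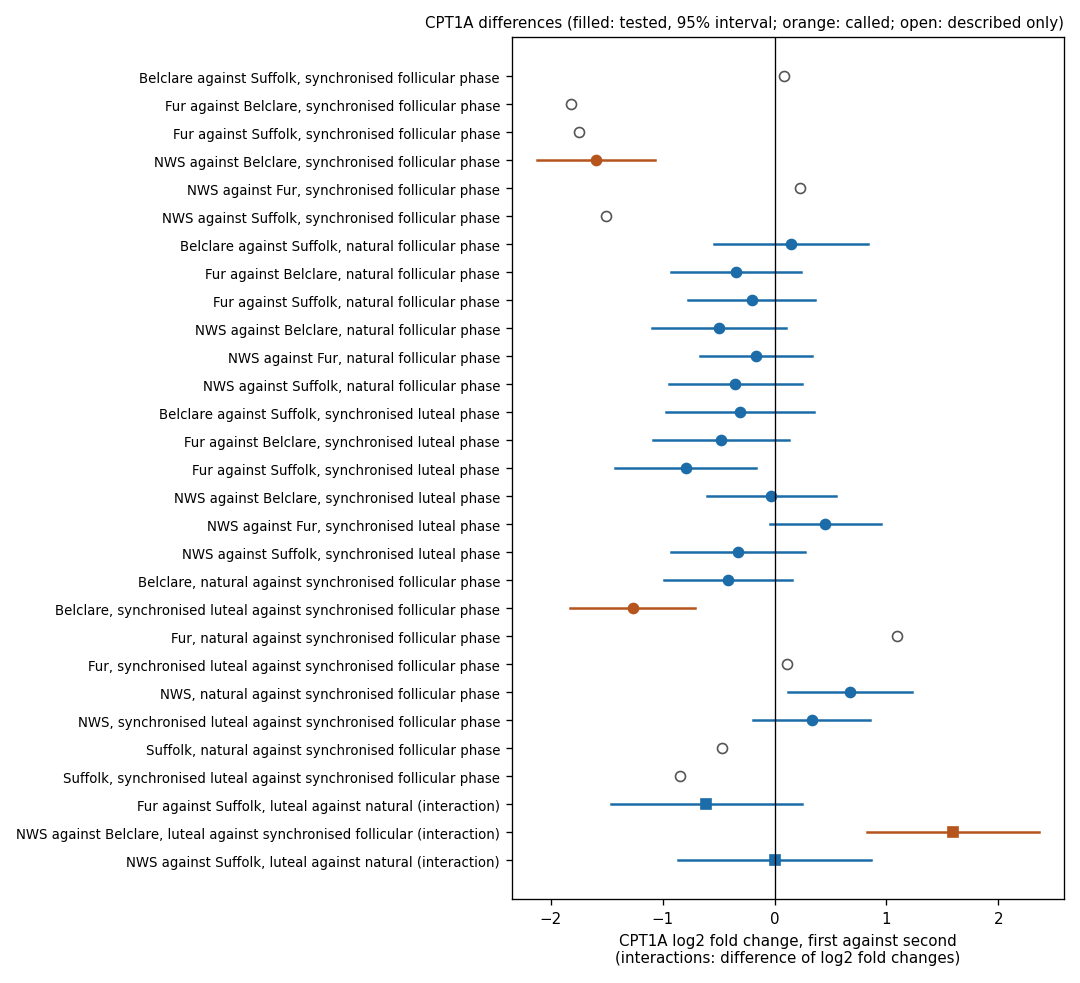
CPT1A log2 fold changes (horizontal axis) of the first against the second group named, with 95% intervals for tested comparisons. Orange marks a call, squares mark interactions, and open circles mark comparisons that hold the Fur or Suffolk ewes by which the gene was picked. The orange intervals lie clear of 0, at -1.60 for NWS against Belclare and -1.27 for the Belclare phases, and at 1.59 for the interaction. All of these calls hold the same Belclare synchronised follicular ewes, so they are not separate findings.

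Across the cycle, CPT1A fell in Belclare from the synchronised follicular to the luteal phase. Its level was 2.41-fold lower at the luteal phase (95% interval 1.63 to 3.55; log2 fold change -1.27, standard error 0.27, adjusted p = 0.00089, edgeR's quasi-likelihood test). Of the 10 luteal ewes 8 lay below all 10 follicular ewes. Lower luteal expression was called for 12.4% of all genes and 23.5% of named genes, so CPT1A was among many genes that moved this way. The call held in all 20 fits that left out an ewe, with log2 fold changes between -1.41 and -1.17. The mucus and reproductive tract marker sum also had a lower median in the luteal phase (808.8 against 1848 CPM, 3 of 7 markers called lower and 1 higher), as had the stromal sum (1240 against 2224 CPM, 3 of 5 lower) and the epithelial sum (3102 against 3799 CPM, 1 of 14 lower and 1 higher). The endothelial medians were 1070.0 and 1117 CPM. The part of these markers in the result was not tested. Suffolk ewes, described only, had a log2 fold change of -0.85 between the same phases.

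No such drop was called in NWS, the only Norwegian breed in which it was tested. In NWS the luteal against follicular log2 fold change was 0.33 (95% interval -0.19 to 0.86, adjusted p = 0.300), and in Fur, described only, it was 0.11. The median stromal sum in NWS was 1813 CPM in the follicular and 1224 CPM in the luteal phase. In the same order, the mucus and reproductive tract sum had medians of 966.5 and 603.9 CPM and the smooth muscle sum 6038 and 2375 CPM. Those of the epithelial sum were 1855 and 1803 CPM, of the leukocyte sum 72.9 and 66.6 CPM, and of the endothelial sum 591.0 and 762.5 CPM. The part of these sums in the CPT1A result was not tested. A test of the difference between the breeds gave an interaction of 1.59 on the log2 scale (standard error 0.38, 95% interval 0.83 to 2.36, adjusted p = 0.0419, edgeR's quasi-likelihood test), meaning that the change from follicular to luteal phase was 3.02-fold higher in NWS than in Belclare. Called interactions numbered 73, or 0.493% of all genes, and CPT1A ranked 57 by p. Among genes with a name the share was 1.57%, all of them positive. The interaction holds the same Belclare follicular ewes as the 2 called comparisons above, so it is not a separate finding. The call was near its threshold and was lost in 23 of the 38 fits that left out an ewe, although the estimate stayed between 1.43 and 1.82. Without NWS luteal replicate 1, the highest of its group, the interaction was 1.43 (adjusted p = 0.0672), and without NWS follicular replicate 2 it was 1.82 (adjusted p = 0.0063).

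Natural and synchronised follicular ewes were also compared within each breed. In NWS the natural against synchronised log2 fold change was 0.67 (95% interval 0.12 to 1.23, unadjusted p = 0.0198), which did not pass after adjustment (adjusted p = 0.301, edgeR's quasi-likelihood test). Without replicates 4 and 10 it was 0.67 as well (adjusted p = 0.402 by the same edgeR test). Just 2 genes, 0.0135% of those tested, were called in that comparison with all ewes, and 0 without replicates 4 and 10. In Belclare the log2 fold change was -0.42 (-0.99 to 0.15, adjusted p = 1). Described only, Fur was 1.09 higher on the log2 scale in natural ewes, with 8 of the 10 natural ewes above all 8 synchronised ewes, and Suffolk had a log2 fold change of -0.47. An interaction of NWS and Belclare with natural against synchronised cycle, added after the levels were seen, was 1.08 (0.30 to 1.87, unadjusted p = 0.0083, adjusted p = 0.529), and without NWS natural replicates 4 and 10 it was 1.08 as well (adjusted p = 0.633). Natural and synchronised libraries are separate samples, and what else differed between their collections was not analysed here. The interactions of luteal against natural phase were -0.61 for Fur and Suffolk (-1.46 to 0.24, adjusted p = 0.479) and 0.00 for NWS and Suffolk (-0.86 to 0.87, adjusted p = 1), or 0.01 without NWS natural replicates 4 and 10.

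CPM is not corrected for transcript length, so levels are compared here within a gene only. CPT1B (muscle form) also differed between NWS and Belclare at the synchronised follicular phase. NWS ewes ran from 6.4 to 27.1 CPM with a median of 20.1 (18.9 ± 6.4, n = 10), and Belclare ewes from 17.9 to 62.0 with a median of 44.2 (41.0 ± 14.5, n = 10). The groups overlapped at the low end of Belclare, and the fitted change was -1.12 in log2 (standard error 0.25, edgeR's quasi-likelihood adjusted p = 0.0018). CPT1B was also called lower in NWS at the natural follicular phase (-0.68, adjusted p = 0.0354; 4.7% of genes called lower) and at the luteal phase (-0.66, adjusted p = 0.0490; 4.59%). The first of these calls was lost without NWS natural replicates 4 and 10 (-0.64, adjusted p = 0.0841). It was lower in Fur than in Belclare at the natural follicular phase (-0.70, adjusted p = 0.0190; 7.13%). In NWS it rose from the follicular to the luteal phase (0.66, adjusted p = 0.0451; 11.7% of genes called higher), while in Belclare the change was 0.18 (adjusted p = 0.550). Both the luteal difference and the NWS rise were lost without the low count filter (adjusted p = 0.0587 and 0.0658). In Belclare the CPT1B means stood between 41.0 and 46.9 CPM in the 3 states.

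CPT1C followed CPT1A in the Belclare luteal drop. Belclare follicular ewes ran from 11.2 to 37.1 CPM with a median of 28.1 (24.6 ± 9.4, n = 10), and luteal ewes from 8.1 to 18.8 with a median of 11 (12.2 ± 4.1, n = 10). The ranges overlapped at their edges, and the fitted change was -1.02 in log2 (standard error 0.24, edgeR's quasi-likelihood adjusted p = 0.0019). Luteal Belclare ewes were also lower in CPT1C than luteal Suffolk (log2 fold change -1.39, adjusted p = 0.0204; 1.69% of genes called lower in Belclare), Fur (0.89 higher in Fur, adjusted p = 0.0037; 8.81% called higher) and NWS ewes (0.97 higher in NWS, adjusted p = 0.0054; 7.05% called higher). Its interaction of NWS and Belclare with phase was 1.35 (standard error 0.31, adjusted p = 0.0387, or 0.0609 without the low count filter). At the synchronised follicular phase NWS and Belclare did not differ beyond the test in CPT1C (-0.37, 95% interval -0.81 to 0.07, adjusted p = 0.171), and no breed comparison at the natural follicular phase passed for it. In the contrast by which CPT1A was picked, Fur against Suffolk, the log2 fold change was -0.88 for CPT1B and -0.57 for CPT1C, described only.

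**Figure D3:**
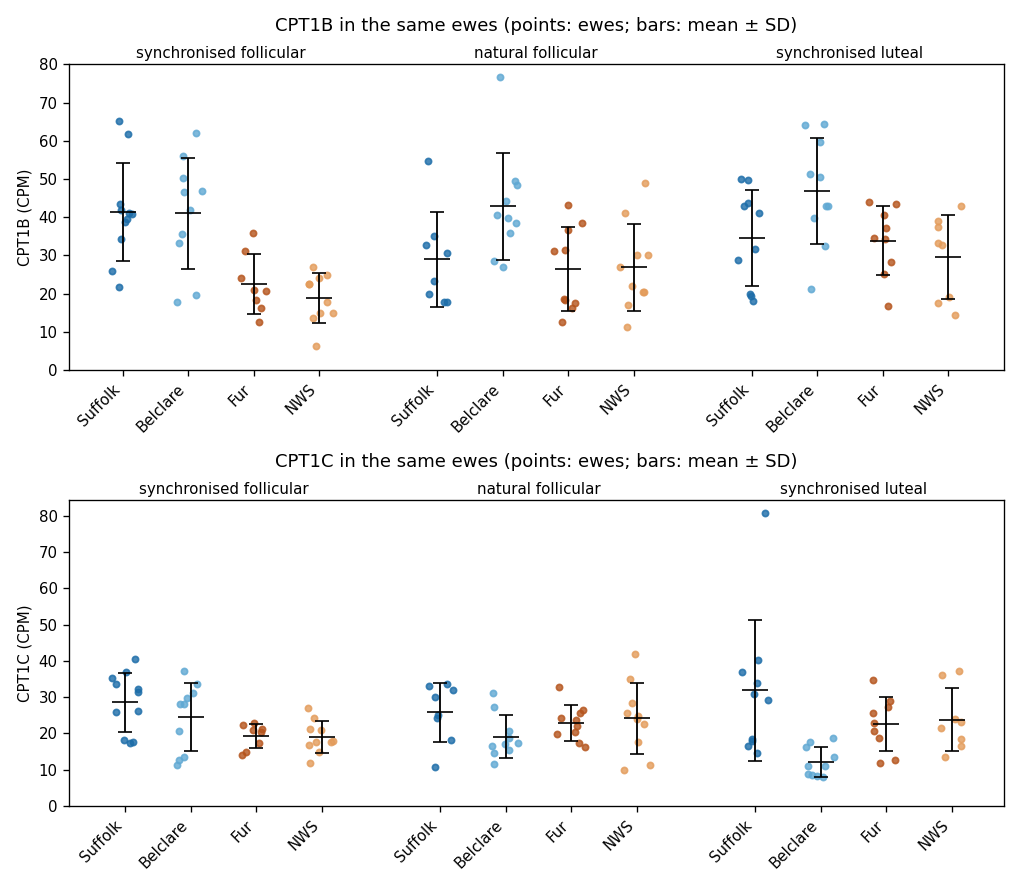
CPT1B (upper panel) and CPT1C (lower panel) levels in CPM in the same ewes, with the mean and SD of each group as black bars. CPT1B averages 41.0 to 46.9 CPM in Belclare at all 3 states, and CPT1C is lowest in luteal Belclare ewes at 12.2 CPM.

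Genes around CPT1A were taken from 4 lists of fatty acid metabolism holding 72 genes, of which 22 had an identifier paired with a symbol and all 22 were tested. Names were at hand for 1338 of the genes tested, and most of these names belong to genes with higher expression in Suffolk than Fur at the synchronised follicular phase, so the 22 are no unselected sample. At the synchronised follicular phase, 12 of the 22 were lower in NWS than in Belclare and none was higher, beside 8.52% of all genes and 39.9% of the genes with a name. Their median log2 fold change was -0.66, beside -0.02 over all genes and -0.56 over those with a name. CPT1A, at -1.60, lay below each of the 22.

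The counts by role stand beside 8.52% of all genes and 39.9% of named genes called lower in NWS. Measured were 5 of 18 entry genes, 3 of 24 beta-oxidation genes, 9 of 20 regulators and 5 of 10 PPAR-responsive genes. By role, the entry group had 2 of 5 measured genes lower in NWS than in Belclare at this phase. These were SLC22A5, the carnitine importer of the plasma membrane (log2 fold change -0.81, adjusted p = 0.00023), and SLC25A42, which carries coenzyme A into mitochondria (-0.98, adjusted p = 0.0059). The peroxisomal and beta-oxidation group had 1 of 3, HACL1, an enzyme of peroxisomal alpha-oxidation (-0.67, adjusted p = 0.0216). Of the 9 measured regulators 7 were lower. Among them PRKAG3, a regulatory subunit of the energy sensor AMPK, was at -1.24 (adjusted p = 0.00063), the orphan nuclear receptor ESRRG at -0.95 (adjusted p = 0.0014) and the mitochondrial deacetylase SIRT3 at -0.83 (adjusted p = 0.0015). The coactivators PPARGC1B (-0.70) and NCOA2 (-0.62), the phosphatidate phosphatase LPIN3 (-0.88) and the zinc finger factor KLF11 (-0.92) were lower as well. Of 5 PPAR-responsive genes 2 were lower, namely UCP2, a carrier of the inner mitochondrial membrane (-1.17, adjusted p = 0.00076), and PLIN2, a coat protein of lipid droplets (-0.60, adjusted p = 0.0019), all by edgeR's quasi-likelihood test.

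**Figure D4:**
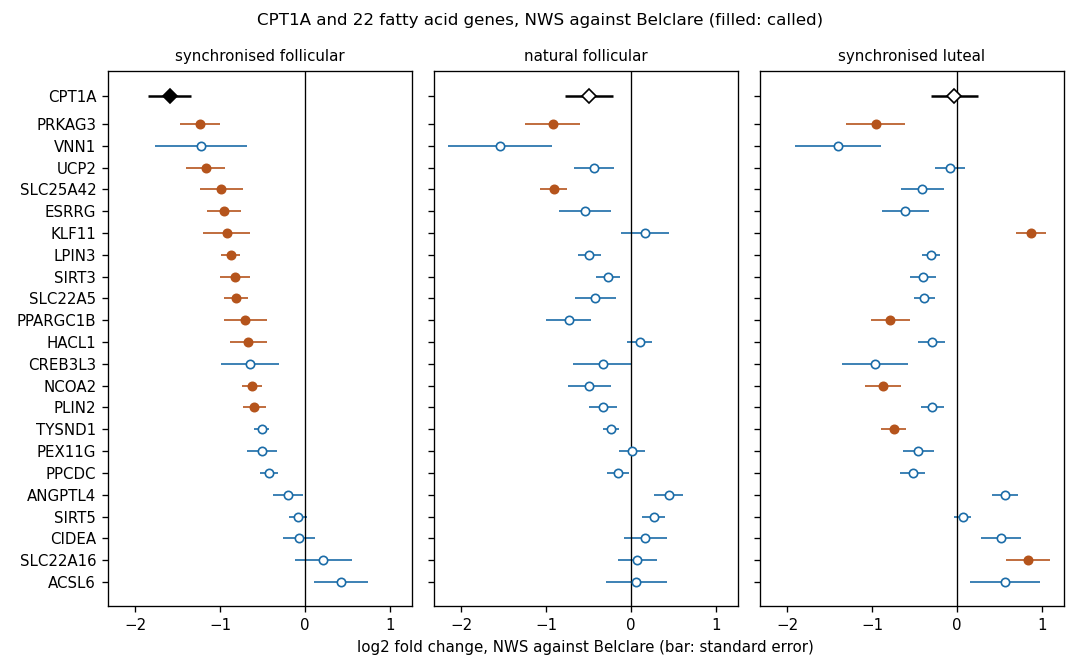
Log2 fold changes of CPT1A (diamonds) and 22 genes of fatty acid metabolism between NWS and Belclare (horizontal axis, bars are standard errors) at 3 states of the cycle, with calls filled. At the synchronised follicular phase 12 of the 22 are called lower, against 2 at the natural follicular phase and 4 at the luteal phase.

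At the other states fewer of the 22 were called between NWS and Belclare. At the natural follicular phase 2 were lower and none higher (4.7% of all genes and 24.0% of named genes lower), PRKAG3 at -0.92 (adjusted p = 0.0486) and SLC25A42 at -0.91 (adjusted p = 0.0012). Without NWS natural replicates 4 and 10 only SLC25A42 of the 22 was called (-0.89, adjusted p = 0.0040), and PRKAG3 was not (-0.85, adjusted p = 0.115, edgeR's quasi-likelihood test). Over all genes, those called lower then numbered 504 instead of 696. In the luteal phase 4 were lower (4.59% of all genes, 21.0% of named genes) and 2 were higher (7.05% of all genes, 3.29% of named genes). The 2 higher were KLF11 (0.87, adjusted p = 0.0028) and SLC22A16, a carnitine transporter first known from testis (0.84, adjusted p = 0.0243). Between the phases of the synchronised cycle in Belclare, 6 of the 22 fell with CPT1A and none rose, beside 12.4% of all genes and 23.5% of named genes. These were UCP2 (-1.20), the lipoprotein lipase inhibitor ANGPTL4 (-1.01), KLF11 (-0.95), SLC22A16 (-0.94), ESRRG (-0.69) and the lipid droplet protein CIDEA (-0.64). Their adjusted p-values ran from 2.85e-05 to 0.0215 by edgeR's quasi-likelihood test. In NWS none of the 22 fell between these phases and 3 rose (11.7% of all genes, 13.9% of named genes), namely PRKAG3 (0.93), KLF11 (0.88) and SIRT3 (0.71).

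In the remaining comparisons the 22 genes gave few calls. Fur against Suffolk had 4 lower and 1 higher at the natural follicular phase (5.08% and 4.54% of all genes, 20.3% and 1.2% of named genes) and 3 lower at the luteal phase (7.4% of all and 28.8% of named genes), where CREB3L3, a liver-enriched transcription factor active in fasting, was at -2.26. Fur against Belclare had 3 lower at the natural follicular phase (7.13% of all and 28.3% of named genes) and 6 lower at the luteal phase (7.45% and 32.5%). NWS against Suffolk had 1 lower at the luteal phase (1.45% and 7.17%), and Belclare against Suffolk had ANGPTL4 lower at the luteal phase (-0.62; 1.69% and 4.71%). CPT1A itself was not called in any of these 6 comparisons.

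The gene most like CPT1A from ewe to ewe was KLF11, a Krüppel-like transcription factor. Pearson's r was 0.79 over all grouped ewes (115 less the unassigned library) after subtracting each group's mean log2 CPM, the highest of all 14810 other genes tested, named or not, whose median r was 0.01. Leaving out the 2 ewes farthest from the median of KLF11 gave r = 0.80 (n = 112). Within the 12 groups taken separately r ran from 0.55 in Fur at the synchronised follicular phase to 0.95 in luteal Suffolk. The next named genes were LDB1 (0.64), YPEL1 (0.62), CALCOCO1 (0.62) and PCGF2 (0.61). Values of an ewe share a library and its normalisation, so these are descriptions. Of the 22 list genes, KLF11 alone had a called interaction of NWS and Belclare with phase, beside 0.493% of all genes and 1.57% of named genes. The interaction of KLF11 was 1.82 (standard error 0.35, adjusted p = 0.0101, edgeR's quasi-likelihood test). Its mean fell from 21.0 ± 8.3 to 11 ± 2.6 CPM in Belclare and rose from 11.1 ± 6.6 to 20.1 ± 6.5 CPM in NWS between follicular and luteal phase.

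**Figure D5:**
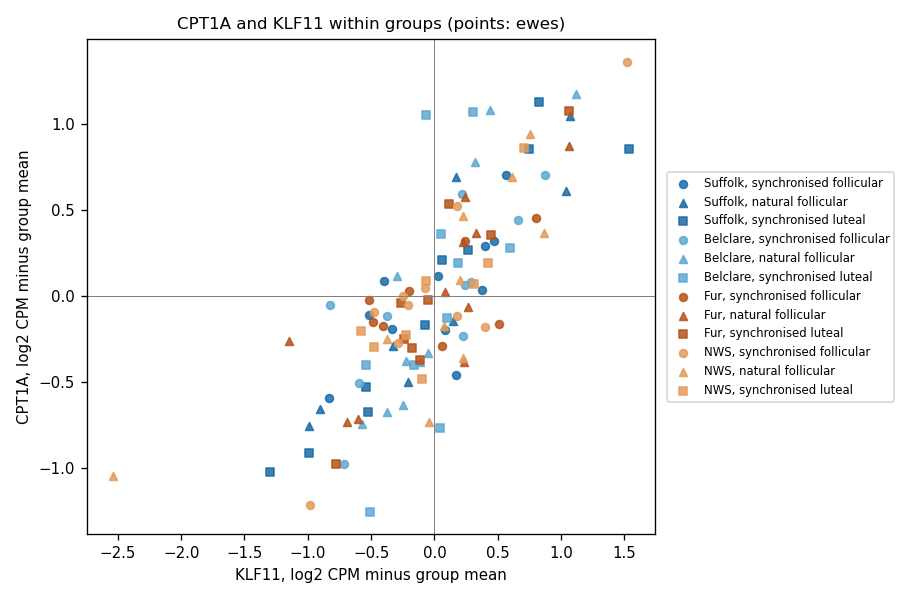
CPT1A against KLF11 in all grouped ewes, each as log2 CPM minus the mean of its group, with colours for breeds and symbols for states. Ewes above their group in KLF11 tended to lie above it in CPT1A, with r = 0.79, and the lone point at far left is NWS natural follicular replicate 5.

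Of the 22 list genes, SLC22A5 (within-group r = 0.49), PLIN2 (0.49) and ANGPTL4 (0.44) were next to KLF11 in likeness from ewe to ewe, while PPARGC1B ran the other way (-0.26). The relatives were less like it, with 0.21 for CPT1B and 0.32 for CPT1C. Over the 12 group means, the named genes most like CPT1A were BMF, a pro-apoptotic BCL2-family member (r = 0.96), SGSH, a lysosomal sulphatase (0.93), the carbonyl reductase CBR1 (0.93), TBC1D8 (0.92) and UNC119 (0.92). The named genes least like it were ASB2 (-0.78), PCP4 (-0.74) and DES, the intermediate filament of muscle (-0.72). Among all genes tested, 454, 734 and 886, respectively, had a lower r than these. The named genes as a set had a median r of 0.61 with CPT1A over group means, beside -0.01 for all genes, so that a high value there was common among them.

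Over the 12 group means, the CPT1A level had a correlation of 0.80 with the mucus and reproductive tract marker sum, 0.78 with the epithelial sum, 0.73 with the stromal sum, 0.61 with the endothelial sum, 0.59 with the leukocyte sum and -0.68 with the smooth muscle sum. From ewe to ewe within groups (all grouped ewes) the same correlations were, in this order, -0.30, -0.37, 0.20, 0.34, -0.10 and 0.00. The stromal and endothelial sums were thus positive in both, and the mucus, epithelial and leukocyte sums were positive over group means and negative within groups. The single adipocyte marker with an identifier, CIDEA, averaged 2.10 to 4.99 CPM across groups and had a correlation with CPT1A of 0.51 over group means and -0.02 within groups.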

How the data were processed

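RNA from 115 ewes was sequenced, and the deposited values were raw counts of read pairs per gene that the authors made by trimming with BBDuk, alignment to Oar_v3.1 with STAR (2.6.1b) and counting with featureCounts of Subread (1.6.3) on Ensembl annotation. The libraries were stranded, and whether counting used strand was not given in the sources used here. Groups came from the labels, and 1 library whose labels disagree was left unassigned. Names (1352 of 27054 identifiers) came from lists published with the study. No gene coordinates or sequences were used.

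Counts were fitted for each pair of groups alone in edgeR 4.0.16 (R 4.3.3) by the quasi-likelihood test with TMM normalisation, after a filter of at least 1 CPM in at least 10 of 39 synchronised follicular ewes. Calls required a Benjamini-Hochberg adjusted p below 0.05 and a fold change above 1.5, or the adjusted p alone for interactions. CPM used TMM library sizes over all libraries, and log2 CPM used a prior count of 2. CPT1A entered 20 tests, of which 3 were interactions. The genes named were the CPT1 family, all list members with an identifier, the 5 named genes with the highest and the 3 with the lowest r with CPT1A over group means, and the 5 with the highest r within groups. CPT1A, the lists and the markers were chosen with earlier results of these data known. Alternatives were DESeq2 1.42.0 and its size factors, no filter or at least 10 counts in every ewe, all 12 groups in a single fit, a replicate block, an exact permutation test and leaving out ewes. The code was tested on simulated data. Counting error is small at these depths, and the number of ewes limits precision.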

Additional observations from a re-analysis of the deposited data

Results flagged for a closer look

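CPT1A in the synchronised follicular NWS ewe replicate 2 was at 114.2 CPM, far above the next value of its group, 63.8 CPM. In luteal NWS replicate 1 it was at 106.3 CPM, with the next value at 66.7 CPM. CPT1B stood apart in Belclare natural follicular replicate 6 (76.6 CPM, next 49.4) and in Suffolk natural follicular replicate 5 (54.8 CPM, next 35.0), and CPT1C in luteal Suffolk replicate 4 (80.7 CPM, next 40.2). The gap to the nearest ewe passed Dixon's 95% limit in these 5 of 33 groups examined, where chance flags about 1 group in 20.

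The change from the follicular to the luteal phase differed between NWS and Belclare for CPT1A (interaction 1.59, adjusted p = 0.0419) and for CPT1C (1.35, adjusted p = 0.0387), both by edgeR's quasi-likelihood test. Both calls were near the threshold. Without the low count filter neither was made (adjusted p = 0.0611 and 0.0609), and that for CPT1A was lost in 23 of the 38 fits that left out an ewe.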

How the results depend on the processing

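The lower CPT1A level in NWS than in Belclare at the synchronised follicular phase and the Belclare luteal drop passed under every alternative run. Leaving out each ewe gave log2 fold changes of -1.82 to -1.5 and -1.41 to -1.17, respectively. Luteal Fur against Suffolk, not called in the report, passed with DESeq2 (-0.79, adjusted p = 0.0289), all 12 groups in a single fit (-0.78, 0.0247) and an exact permutation test (-0.70, p = 0.0447), and in 6 of 19 fits without an ewe (range -0.96 to -0.64), those without Fur replicate 8 and Suffolk replicates 5, 6, 7, 9 and 10. NWS natural against synchronised passed by the exact permutation test (0.71, p = 0.0235), whose p-values are two-sided and not adjusted over genes. The interaction of NWS and Belclare with luteal phase was lost without a filter (1.59, adjusted p = 0.0611) and in 23 of 38 fits without an ewe (range 1.43 to 1.82), namely 5 Belclare follicular, 5 Belclare luteal, 9 NWS follicular and 4 NWS luteal ewes. Reversals concerned values near 0, NWS against Belclare at the luteal phase by the exact permutation test (0.087) and the NWS and Suffolk interaction with at least 10 counts in every ewe (-0.0017). Over all genes, the 73 called interactions of NWS and Belclare became 238 with DESeq2, 47 with all 12 groups in a single fit, 18 without a filter and 0 with the replicate block in edgeR (1630 at an unadjusted p below 0.05), and the 2 genes called between natural and synchronised NWS ewes became 95, 79, 1 and 0 (1525), and 3 with the stricter filter. Of the other comparisons whose shares of calls are given, luteal Belclare against Suffolk went from 360 calls to 938 with DESeq2, 990 with all 12 groups in a single fit and 18 with the block, luteal NWS against Suffolk from 645 to 211 and luteal NWS against Belclare from 1724 to 1001 with the block, and natural Fur against Suffolk from 1425 to 942 with the block. Counts of list genes called moved by over 1.5 times in 15 cases. The cause of these changes was not tested. Leaving out ewes from the results that were called, and NWS natural replicates 4 and 10, was chosen after seeing the data. The latter changed no CPT1A call and ended those of CPT1B and PRKAG3 between NWS and Belclare at the natural follicular phase.

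Replicate numbers are shared by different ewes, and same-numbered ewes did not deviate together (median correlation 0.02, range -0.52 to 0.59, 13 of 154 pairs best with their own number). With the replicate block, CPT1A in luteal Fur against Suffolk was called (-0.73, adjusted p = 0.0075), the interaction of NWS and Belclare was not (1.75, adjusted p = 0.0771), and luteal NWS against Belclare changed sign (0.24, adjusted p = 0.501). Under the block CPT1B changed sign in the Fur and Suffolk interaction (-0.10) and CPT1C in NWS against Fur at the natural follicular phase (-0.011). The block or the unfiltered fit also ended 3 CPT1B or CPT1C calls beside the CPT1C interaction, among them CPT1C in luteal Belclare against Suffolk (-1.27, adjusted p = 0.0630), and the block ended the KLF11 interaction (1.89, adjusted p = 0.0560), which passed in the other 5 refits (adjusted p = 0.00026 to 0.0219).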

Other observations

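In 1 library the title and the other labels named different states of the cycle, so it entered no group. It held 145.3 CPM of CPT1A (2521 counts), 32.9 CPM of CPT1B and 36.1 CPM of CPT1C.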
